A study of Mus musculus with 4 samples.

Results

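Cholesterol and fatty acid synthesis genes were examined by RNA sequencing in adult sympathetic ganglia. The genes were taken by symbol from the deposited table. Of 34 names given, 33 were found among 21937 genes, and Msmo1 was present under its older symbol Sc4mol, which was also on the list. Of the 33, 32 had a mean of 50 or more, a level that 12043 genes of the table reached. The exception was Hmgcs1, which was listed at 0.

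Cholesterol is built from acetyl-CoA through mevalonate and squalene, and fatty acids are built from the same precursor through malonyl-CoA. Enzymes of these pathways are transcribed under the control of the SREBP factors, which the escort protein SCAP carries out of the endoplasmic reticulum when membrane sterol is low and which the INSIG proteins hold back when it is high. Excess sterol activates the nuclear receptors of the LXR family, whose targets export cholesterol. Neurons need membrane lipid for their axons, and the glia around them are known as a major source of lipid in peripheral nerve.

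The series held 4 samples of superior cervical and stellate ganglia of mice at postnatal day 60, 1 pool per genotype, from lines in which Hand2 or Gata3 was deleted by a tamoxifen-dependent Cre under the Dbh promoter, given in the labels as C57BL/6P1DbhCreERT2. All 4 groups carried this Cre, and tamoxifen was injected for 10 days. The Hand2 control was B6.129/SVJHand2flox/+ and the Hand2 mutant B6.129/SVJHand2flox/del, each a pool of 16 ganglia from 4 mice. The Gata3 control was B6.129/SV129Gata3flox/+, of 16 ganglia from 4 mice, and the Gata3 mutant, written B6.126/SV129Gata3flox/flox, pooled 32 ganglia from 8 mice. The series' design text describes only rudiments of ganglia in that mutant, with Gata3 not reduced. Dbh is active in noradrenergic neurons, so the glia, vessels and connective tissue of the pools were not the cells targeted.

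The table holds a single comparison, in which a column headed control, called the control column here, is set against another group mean, called the contrast column. Neither the line nor the number of libraries behind a column is named, so neither column was given a genotype. Each value below is treated as a normalised value with no replicate and no error. "Higher" and "lower" describe these columns, and no difference has a replicate check. Over all genes the control column summed to 19343986 and the contrast column to 19135221. In a pool of whole ganglia, fewer cells of a type and less RNA per cell cannot be told apart.

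The columns also differed in transcripts that mark cell types, given here by marker lists. Of the 12043 genes 50.3% were higher and 48.8% lower in the contrast column. The 9 satellite glia markers summed to 30546 in the control column and 34366 in the contrast column, with 8 of 9 higher, and the 9 myelinating Schwann cell markers to 22418 and 23804, with 4 higher and 3 lower of the 7 at a mean of 50 or more. The 12 macrophage markers found summed to 2897 and 3909, with 11 of 12 higher. The 14 adipocyte markers summed to 7260 and 6872, with 9 lower, 2 higher and 1 equal of the 12 at that level, and the 11 neuronal markers, with Th and Dbh abundant in both columns, to 496542 and 452061, with 7 of 11 lower and 4 higher. The 2 lowest ratios of the neuronal markers were those of Slc6a2, the noradrenaline transporter gene (125271 and 95865), and Dbh (102922 and 89194). The 4 that went the other way were Stmn2 (46191 and 49850), Uchl1 (46494 and 48220), Snap25 (32400 and 33122) and Phox2a (3829 and 4038). The 7 fibroblast markers summed to 25005 and 23276 and the 8 endothelial markers to 1537 and 1640. Skeletal muscle markers (9 genes, 1753 and 61) and sensory neuron markers (6 genes, 854 and 202) were far lower in the contrast column, where Mb was listed at 0. The 4 Y-linked genes of the sex-linked list were listed at 0 in the contrast column and Xist had 114 and 1595. The part of these marker differences in the values below was not tested.

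Promoters are shown first, because the enzyme genes of these pathways are known to be under SREBP control. SREBP factors are known to bind sterol elements beside CCAAT boxes, bound by NF-Y, and GC boxes, bound by Sp1. RefSeq promoter windows of 300 bases on build GRCm38.p6 matched 26 of the 33 genes, counting each gene at any of its listed starts, so that a gene with several starts had more chances of a match. The letters CCAAT were found on either strand in 20 of 26 (76.9%). They were found in 42.8% of 9454 genes that averaged 50 or more and had a window, and in 41.1% of all 27025 genes with a window. The letters GGGCGG were found in 21 of 26 (80.8%), against 70.9% of the 9454 genes and 38.2% of the 27025. A single window with both was present for 17 of 26 genes (65.4%), against 27.6% of the 9454 genes and 14.5% of the 27025. By role, both were found for 9 of 9 matched genes of the sterol segment, from farnesyl diphosphate to cholesterol, 4 of 6 of the mevalonate segment, 3 of 5 regulators, 1 of 4 fatty acid synthesis genes (Acly) and 0 of 2 LXR and efflux genes. CCAAT was not found for Acat2, Scap, Acaca, Elovl6, Abca1 and Nr1h2. The sterol element letters TCACNCCAC, searched on both strands, were found for 1 of the 26 genes, Hmgcs1, and for 1.44% of the 27025 genes.

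The windows of 4 genes are printed to show this arrangement, with the letters of the CCAAT box, the GC box and the sterol element in capitals on either strand. Cyp51 (chr5:4104648-4104947, minus strand) encodes the demethylase that acts on lanosterol, and Lss (chr10:76531355-76531654, plus strand) the cyclase that makes lanosterol and had the lowest ratio of the group. Insig1 (chr5:28071162-28071461, plus strand) encodes a brake on SREBP, and Hmgcs1 (chr13:119690101-119690400, plus strand) the enzyme that makes HMG-CoA.
Cyp51: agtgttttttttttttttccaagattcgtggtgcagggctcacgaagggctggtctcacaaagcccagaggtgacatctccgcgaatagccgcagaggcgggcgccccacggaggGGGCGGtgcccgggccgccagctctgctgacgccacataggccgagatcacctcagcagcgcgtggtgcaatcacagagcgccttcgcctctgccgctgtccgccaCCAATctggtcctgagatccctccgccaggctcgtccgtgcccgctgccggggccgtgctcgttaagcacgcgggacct
Lss: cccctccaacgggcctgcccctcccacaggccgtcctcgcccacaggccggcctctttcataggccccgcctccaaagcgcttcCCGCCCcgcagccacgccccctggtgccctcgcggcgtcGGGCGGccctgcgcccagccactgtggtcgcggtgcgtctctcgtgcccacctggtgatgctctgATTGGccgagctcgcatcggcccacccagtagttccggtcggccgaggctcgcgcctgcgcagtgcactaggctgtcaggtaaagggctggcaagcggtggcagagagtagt
Insig1: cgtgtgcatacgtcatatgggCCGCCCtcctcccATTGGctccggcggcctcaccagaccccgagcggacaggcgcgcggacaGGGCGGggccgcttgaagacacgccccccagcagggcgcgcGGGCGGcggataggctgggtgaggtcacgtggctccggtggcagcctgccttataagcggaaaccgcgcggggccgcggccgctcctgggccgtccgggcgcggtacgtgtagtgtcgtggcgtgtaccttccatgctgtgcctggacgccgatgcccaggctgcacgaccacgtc
Hmgcs1: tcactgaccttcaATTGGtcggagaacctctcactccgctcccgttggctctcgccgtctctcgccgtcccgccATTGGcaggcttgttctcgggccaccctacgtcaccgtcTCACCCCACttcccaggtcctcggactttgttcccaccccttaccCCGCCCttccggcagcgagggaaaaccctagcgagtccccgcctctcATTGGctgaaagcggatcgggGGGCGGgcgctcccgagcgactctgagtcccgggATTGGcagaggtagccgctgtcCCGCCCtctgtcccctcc
The Cyp51 window held 1 CCAAT and 1 GGGCGG match, the Lss window 1 and 2, the Insig1 window 1 and 3 and the Hmgcs1 window 4 and 3. No match overlapped another. These are matches of letters, not measured sites.

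The genes were abundant in the ganglia as a set. Together the 33 genes took 0.997% of the summed values of the control column and 0.990% of the contrast column, and fatty acid synthesis alone 0.585% in either column. The lowest mean value among the 32 was 865, for Ebp, and the highest 43698, for Scd2. Values between genes were compared per kilobase of transcript, using the longest protein-coding transcript of GENCODE M21. Per kilobase the 33 genes took 0.750% of the control column and 0.727% of the contrast column. Fatty acid synthesis alone took 0.310% and 0.302%.

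**Figure D1:**
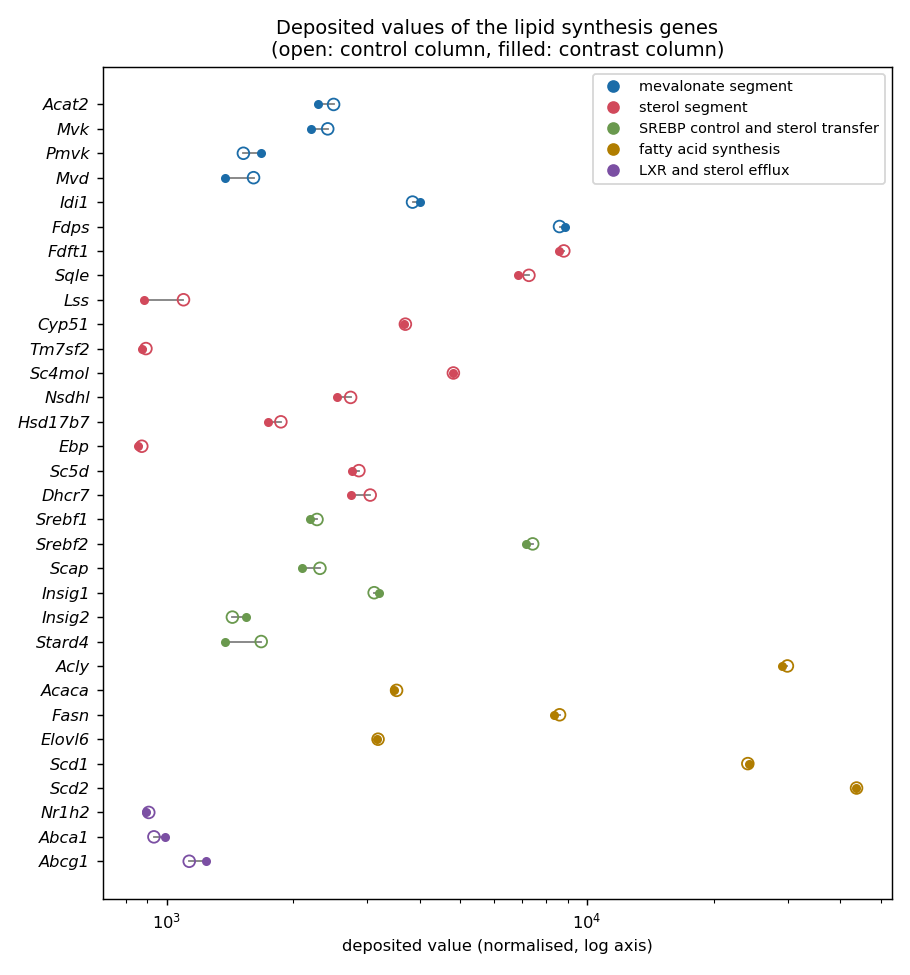
Deposited values of the 32 detected lipid synthesis genes on a log axis, in pathway order and coloured by role, with the control column as open and the contrast column as filled circles. The circles of most genes nearly coincide, from Ebp at 873 and 857 to Scd2 at 43760 and 43636, and the widest gap as a ratio is that of Lss, at 1097 and 884.

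Per kilobase, the desaturase gene Scd2 stood highest, at 8022 in the control column and 7999 in the contrast column, rank 96 of the 11924 genes with a length. It was followed by Acly, whose product splits citrate into acetyl-CoA, at 6770 and 6560 (rank 129). Fdps, which encodes farnesyl diphosphate synthase, had 6224 and 6420 (rank 139). The desaturase gene Scd1 had 4993 and 5034 (rank 205). Scd1 and Scd2 are close paralogs, and the sources used here do not say how reads with several positions were counted, so their separate levels are uncertain.

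Genes of the sterol segment came next in order. Sqle, which encodes squalene epoxidase, had 2638 per kilobase in the control column and 2491 in the contrast column, Sc4mol, the methyl oxidase gene, had 2353 and 2352, and Fdft1, the squalene synthase gene, had 2381 and 2319. On the mean of both columns Sc4mol (rank 535) and Fdft1 (rank 537) were practically level. Lss stood far below its neighbours in the pathway, at 235 and 189 per kilobase (rank 5651). On the mean of both columns the lowest levels of the 32 genes were those of the cholesterol exporters Abcg1 (194 and 213) and Abca1 (90.9 and 96.8). Fasn, the fatty acid synthase gene, with a transcript of 10050 bases, had 856 and 831 per kilobase, and Acaca, the acetyl-CoA carboxylase gene, had 370 and 365.

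**Figure D2:**
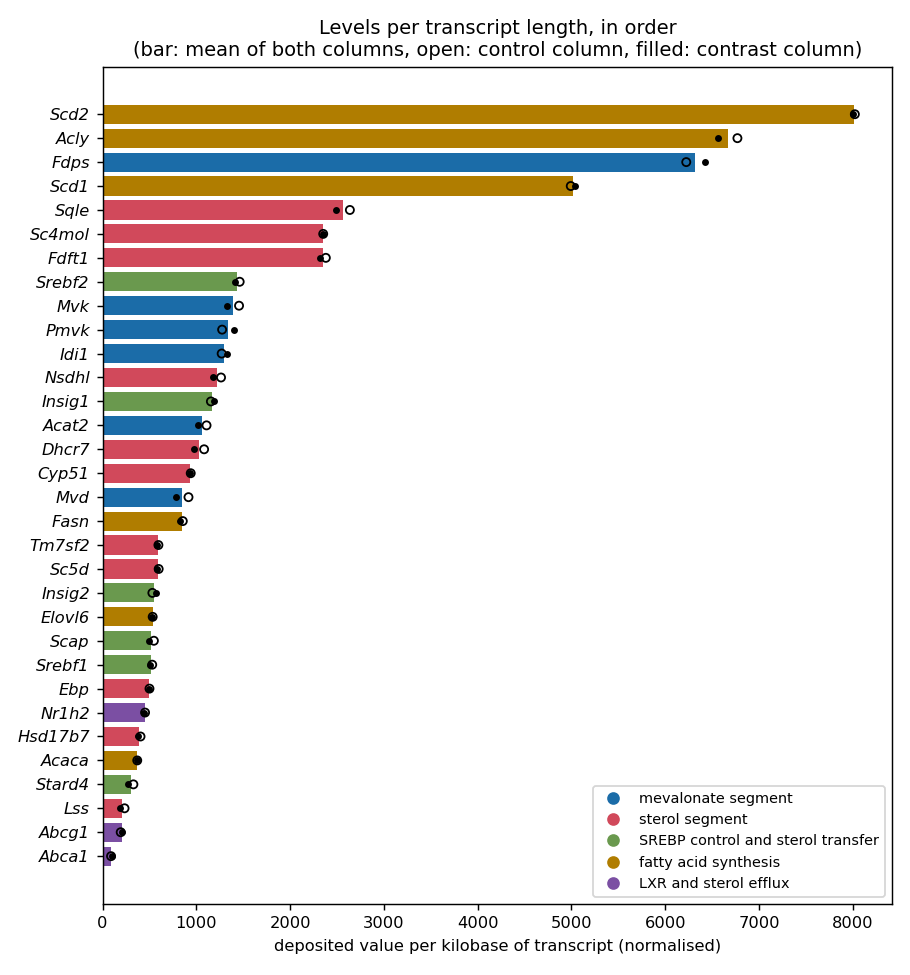
Deposited values per kilobase of transcript for the 32 genes in descending order, with bars for the mean of both columns, open circles for the control column and filled circles for the contrast column. Scd2, Acly, Fdps and Scd1 stand apart from the rest, at ranks 96 to 205 of 11924 genes, and Abca1 is lowest at 90.9 and 96.8.

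Between the columns, the set hardly differed. None of the 32 genes reached a ratio of 5 to 4 in either direction on the log2 scale with a pseudocount of 1, where 4.35% of the 12043 genes were higher and 5.62% lower by that rule. Among the 6822 genes averaging 500 or more, a level all 32 reached, 1.07% were higher and 2.4% lower by that rule. The log2 ratios of contrast to control ran from -0.31 to 0.14 in the set, with an SD across genes of 0.11, against 0.20 across the 6822 genes. The SD of 0.20 includes the sex-linked genes Ddx3y (log2 ratio -10.24) and Xist (3.79), which widen it. At 1.1-fold, 1 gene was higher (Pmvk) and 5 were lower (Lss, Stard4, Mvd, Dhcr7 and Scap), 3.13% and 15.6% of the 32, against 13.9% and 14.2% of the 6822 genes and 20.1% and 19% of the 12043.

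The small differences leaned one way. Of the 32 genes 24 (75%) had a lower value in the contrast column by any amount, against 48.8% of the 12043 genes and 50.2% of the 6822, and the median log2 ratio was -0.04 against 0.0026 over the 12043 genes. The count was also 24 of 32 with the columns scaled to the same upper quartile, where 49.8% of the 12043 genes were lower. It was 20 of 32 after the columns were scaled to the same sum, where 45.0% of the 12043 genes were lower, and 20 of 32 after correction for transcript length, where 49.1% of 11924 genes were lower. In the authors' deposited table none of the 32 genes had an unadjusted p under 0.05, where 2.61% of the 12043 genes had one, and the adjusted p was 1 for all 32.

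**Figure D3:**
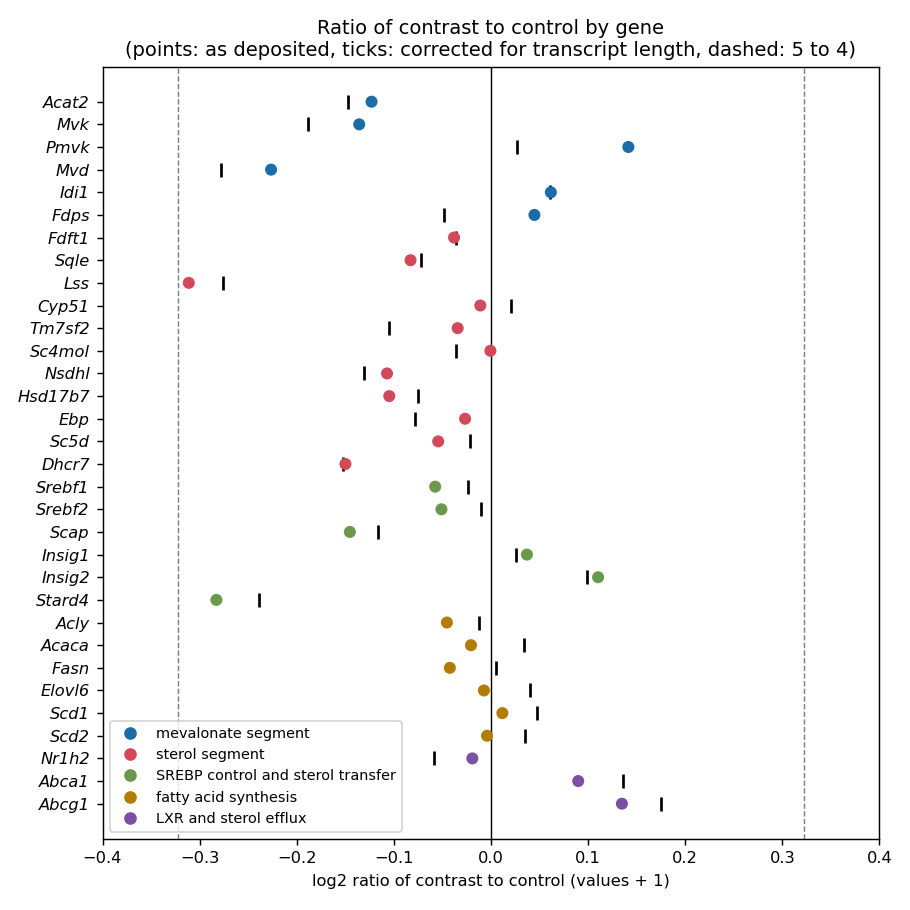
Log2 ratio of contrast to control for the 32 genes in pathway order, with coloured points for the deposited values, black ticks after correction for transcript length and dashed lines at a ratio of 5 to 4 either way. All points lie between the dashed lines, from -0.31 for Lss to 0.14 for Pmvk, and the 11 points of the sterol segment lie at or below 0.

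Genes of the mevalonate segment went either way, with 3 of 6 lower and 3 higher, against 48.8% of the 12043 genes lower. The median log2 ratio of the segment was -0.04. After correction for transcript length 4 of 6 were lower, against 49.1% of 11924 genes, and the median was -0.10. Acat2, which encodes the cytosolic thiolase that joins acetyl-CoA units, read 2496 in the control column and 2292 in the contrast column. Mvk, the mevalonate kinase gene, had 2417 and 2200. Mvd, whose product decarboxylates mevalonate diphosphate, had 1610 and 1376, a ratio of 0.855 (log2 ratio -0.23). These 3 enzymes were lower in the contrast column.

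The other 3 genes of the segment were higher in the contrast column. Pmvk, which encodes the kinase between MVK and MVD, had 1523 and 1680, 10.3% higher, the highest of the set (log2 ratio 0.14). Its transcript is short, at 1194 bases, and after correction for transcript length its log2 ratio was 0.03. Idi1, the isomerase gene, had 3846 and 4014. Fdps had 8602 and 8873, a log2 ratio of 0.04 that turned to -0.05 after correction for length. Hmgcs1 was listed at 0 in both columns, although Acat2 and Mvk, which act before and after it in the pathway, were abundant. Of 39 proteasome gene symbols 0 were listed at 0 in both columns, of 57 translation initiation factor symbols 0, and of 78 cytosolic ribosomal protein symbols 1. The 0 of Hmgcs1 is given as listed, and its level was not analysed here.

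In the sterol segment, which leads from farnesyl diphosphate to cholesterol, all 11 genes had a lower value in the contrast column, by any amount. Of the 12043 genes 48.8% were lower, and the median log2 ratio of the segment was -0.05. With the columns scaled to the same sum Cyp51 and Sc4mol turned, leaving 9 of 11 lower, against 45.0% of the 12043 genes. After correction for length Cyp51 turned, leaving 10 of 11 lower, against 49.1% of 11924 genes. Lss, which closes the sterol rings, read 1097 in the control column and 884 in the contrast column, 1.24-fold lower (log2 ratio -0.31), just inside the ratio of 5 to 4. The authors' deposited table gives Lss a p of 0.0921 and an adjusted p of 1.

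Dhcr7, which encodes the reductase of the last step to cholesterol in one branch of the pathway, had 3050 and 2749, a ratio of 0.901. Nsdhl and Hsd17b7, partners of the SC4MOL enzyme in removing methyl groups from the ring, had 2740 and 2544, and 1870 and 1739. Both had ratios near 0.93. Sqle, which encodes a rate-limiting oxygenase, had 7275 and 6869, a ratio of 0.944. Sc5d, a sterol desaturase gene, had 2867 and 2761, and Fdft1 had 8806 and 8577.

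Differences of 2.35% or less were found for the remaining 4 genes of the segment. Tm7sf2, a sterol reductase gene, had 893 and 872. Ebp, the isomerase gene, had 873 and 857. Cyp51 had 3698 and 3670, and Sc4mol had 4810 and 4808. Ebp and Nsdhl are X-linked, and the columns differed in sex-linked transcripts, whose part in the values of this pair was not tested.

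Of 6 genes of SREBP control and sterol transfer 4 were lower, against 48.8% of the 12043 genes. Past 1.1-fold 2 of the 6 (Stard4 and Scap) were lower, against 14.2% of the 6822 genes averaging 500 or more. The median log2 ratio of the 6 was -0.05, or -0.02 after correction for transcript length. Srebf2, whose product mainly drives sterol genes, read 7426 in the control column and 7168 in the contrast column. Srebf1, whose product mainly drives fatty acid genes, had 2279 and 2190. Scap had 2316 and 2094, a ratio of 0.904, and was lower in the contrast column.

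The INSIG genes, whose products hold the SCAP and SREBP complex in the endoplasmic reticulum, were slightly higher in the contrast column. Insig1 had values of 3117 and 3198 and Insig2 had 1434 and 1548, a ratio of 1.08. Stard4, which encodes a soluble carrier of cholesterol, had 1679 and 1380, 1.22-fold lower (log2 ratio -0.28), the next lowest ratio after Lss. The authors' deposited table gives Stard4 a p of 0.0837, the smallest of the set, and an adjusted p of 1.

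Fatty acid synthesis genes were the closest to equal, with log2 ratios from -0.05 to 0.01 and none past 1.1-fold. Acly read 29964 in the control column and 29036 in the contrast column, Acaca had 3524 and 3474, and Fasn had 8604 and 8355. Elovl6, an elongase gene, had 3184 and 3168. The desaturase genes Scd1 and Scd2 had 24126 and 24323, and 43760 and 43636.

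The direction of these small differences depended on the scaling, with 5 of 6 lower as deposited, 3 of 6 with the columns scaled to the same sum and 1 of 6 after correction for transcript length. Over all genes the shares lower were 48.8%, 45.0% and 49.1%. Fat cells also express this pathway. Over 12 adipocyte markers beside them the median log2 ratio was -0.20, with the lipase gene Lpl at 844 and 582, Fabp4 at 1378 and 1159 and Adipoq at 217 and 227. Cfd, which encodes the adipocyte protease adipsin, differed most of the 12 and went the other way, at 457 and 903 (log2 ratio 0.98). The part of fat cells in the fatty acid genes was not tested.

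Of the LXR and efflux genes, the exporters were slightly higher in the contrast column. Abca1, which exports cholesterol to lipid-poor apolipoproteins, read 933 in the control column and 993 in the contrast column. Abcg1, which exports it to lipoprotein particles, had 1132 and 1243, 9.81% higher (log2 ratio 0.13). Nr1h2, which encodes LXR beta, had 907 and 895. The log2 ratios of Abca1 and Abcg1 stayed above 0 after either scaling and after correction for length, from 0.09 to 0.14 and from 0.13 to 0.18. The other alternatives, pseudocounts and minimum values, cannot turn a direction. Macrophages express both exporters, and the macrophage markers were higher in the contrast column (median log2 ratio 0.44 over 12 genes), whose part was not tested.

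**Figure D4:**
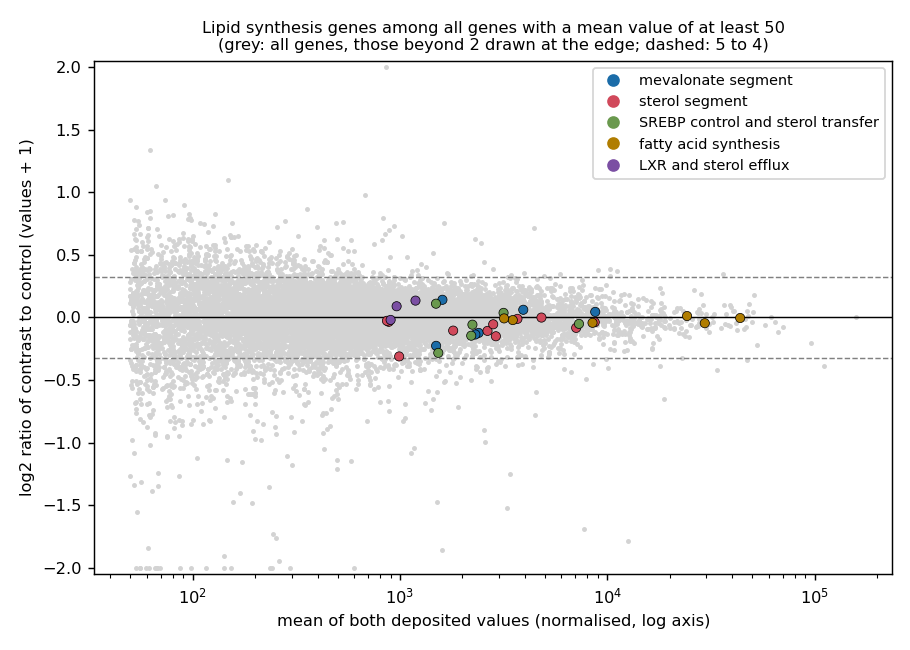
Log2 ratio of contrast to control against the mean of both deposited values, on a log axis, for all 12043 genes averaging 50 or more (grey) and the 32 lipid synthesis genes (coloured by role), with dashed lines at a ratio of 5 to 4 either way. The coloured points lie at mean values from 865 to 43698 and all between the dashed lines, while 1201 of the 12043 genes (9.97%) lie on or beyond them.

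Other genes of the pathway, listed apart from these, had log2 ratios from -0.79 to 0.36, with an SD across genes of 0.17. Their mean values reached down to 63, against 865 among the 32 genes, so the spreads are not at like levels. The genes at the extremes, Pnpla3 and Cyp46a1, averaged 141 and 230. Of 46 listed 45 were found and 40 had a mean of 50 or more. By the ratio of 5 to 4, 2 of the 40 were higher (4.35% of all 12043 genes) and 1 lower (5.62%). After correction for transcript length 1 was higher by that rule. By any amount 22 of 40 were lower, against 48.8% of the 12043 genes.

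The 2 higher genes were Apoe and Cyp46a1. Apoe, the apolipoprotein made by satellite glia and macrophages, read 31910 in the control column and 40681 in the contrast column, a ratio of 1.27, and the authors' deposited table gives it a p of 0.00286 and an adjusted p of 0.419. Cyp46a1, which hydroxylates cholesterol in neurons of the brain, had 201 and 259. Nr1h3, which encodes LXR alpha, had only 59 and 67. Satellite glia and macrophage markers were also higher in the contrast column, as given above, and their part in the values of Apoe was not tested.

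Among the other fatty acid genes, Pnpla3, which encodes a lipid hydrolase and acyltransferase, was the only one past the ratio of 5 to 4. It read 179 in the control column and 103 in the contrast column, 1.74-fold lower (log2 ratio -0.79), and the authors' deposited table gives it a p of 0.0505 and an adjusted p of 1. Slc25a1, the mitochondrial citrate carrier gene that feeds ACLY, had 11142 and 10159, a ratio of 0.912. Mlxip, which encodes a glucose-responsive transcription factor, had 601 and 532, and Elovl1, an elongase gene of very long chains, had 425 and 460.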

How the data were processed

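RNA of 4 ganglion pools was sequenced. Build mm9 is named in the submitters' processing notes, beside HTSeq 0.5.4p1, DESeq, SAMtools 0.1.19 and TopHat2 2.0.8, without roles. The sources used here do not state the annotation, the strand setting or the handling of multiple positions. Per the file headers, which follow DESeq, the deposited value columns are group means of reads divided by size factors, treated as a normalised score, since their whole numbers do not settle whether they are counts, and no depth or counting error is given. In all 21937 genes the authors' mutant heading stands over the average of the control and contrast columns, so that column was left out. The authors' deposited fold change is the ratio of contrast to control in all 16501 genes with a finite fold (relative tolerance 1e-09). The authors' deposited p-value columns were copied. There are 3 value columns that could be matched to no sample.

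Log2 ratios were computed with a pseudocount of 1 in pandas 2.3.3, for genes averaging 50 or more. The planned measures fit a table without replicates, and no test was run. The fold rule and length correction were tested on simulated data. Transcript lengths came from GENCODE M21 by symbol, for 99.0% of the 12043 genes. The correction subtracts the running median over 501 genes of like length. Every gene found was named, and of the other pathway genes up to 4 per list with the largest log2 ratios. Some genes of this rule are not reported here. Members and lists were chosen with earlier results of these data known. The level of 500, the motif letters and the printed windows were chosen after values were seen. Alternatives were other pseudocounts, minimum values, scalings, folds and the length correction.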

Additional observations from a re-analysis of the deposited data

How the results depend on the processing

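No paired analysis was possible because the table holds a single column per group and the labels give no replicate numbers, and for the same reason no replicate could be left out. The median log2 ratio of the 32 genes ran from -0.04 to -0.02 over 8 alternatives. At 1.1-fold in place of the ratio of 5 to 4, 1 gene was higher and 5 were lower, and under the other 9 alternatives 0 were. Of these the stricter folds, the minimum values and the larger pseudocount were bound to give 0. Of the 32 genes 25 had the same direction under 7 alternatives, and 7 turned under at least 1, all with log2 ratios within 0.05 of 0 as deposited. Only the scalings and the length correction could turn a direction. A single gene moved by over 0.1, Pmvk, from 0.14 to 0.03 on correction for transcript length. The other pathway genes, for which the alternatives were added after the data were seen, had 2 higher and 1 lower as reported. They had 2 lower at a minimum mean value of 20, 3 higher and 3 lower with no minimum, 1 higher after correction for length, 4 higher and 3 lower at 1.1-fold, 0 higher at 1.5-fold, and 0 higher and 0 lower at 2-fold. No scaling moved the median of all genes by more than 0.02. With no replicates, differences of this size cannot be told from the spread between pools.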

Other observations

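Other lipid families, picked by symbol stem after the values above were seen, are given as values. Of 10 oxysterol-binding protein-like genes, sterol and lipid carriers at membrane contacts, 6 were lower and 4 higher in the contrast column. Among the 12043 genes 48.8% were lower. The median log2 ratio of the 10 was -0.04, with none past a ratio of 5 to 4. Of 10 further ABC transporter genes of classes A and G averaging 50 or more, 7 were lower, beside the same 48.8%. Their median was -0.08. Abca7 had values of 5617 and 4807, Abcg4 had 2061 and 1786, and Abca8a went the other way with 9121 and 10252. Of 8 sphingolipid synthesis genes 6 were higher, where 50.3% of the 12043 genes were, among them Sgms2, a sphingomyelin synthase gene, at 729 and 855. The ceramide synthase genes, listed apart, had 2 higher and 2 lower of 4, with a median of -0.08. Of 15 peroxisome biogenesis genes 8 were higher and 7 lower, with a median of 0.01.

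Beside Apoe, Apod was the only apolipoprotein gene of the stem with a mean of 50 or more, and it had 5225 in the control column and 6646 in the contrast column, a ratio of 1.27. The authors' deposited table gives Apod a p of 0.00724 and an adjusted p of 0.814. Fabp7, a fatty acid binding protein gene of satellite glia, had 7833 and 10171, and its adjusted p in the authors' deposited table was 0.379. Fabp5 had 6060 and 6253. These differences had no replicate check and are given without correction for transcript length.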
